A study of Rattus norvegicus with 35 samples.

Results

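The genes described here encode the folding machinery of the endoplasmic reticulum (ER) and the unfolded protein response that regulates it. They were chosen by name, as a list of 40 rat symbols. Of these, 37 had a record in the count table, and Manf, Derl2 and Edem1 were not analysed here. The table held 17198 genes in all, with 986 records that matched no symbol counted as a gene each. Libraries from 34 single cells and 1 bulk library of the same kind of cells were sequenced. All were rat converted hypoblast stem cells (cHypoSCs), obtained from rat embryonic stem cells in medium that held 2% fetal bovine serum together with the factors LIF, PDGF and EGF, and collected at day 12 of differentiation. Cells were captured on the C1 microfluidic system and libraries were made with Nextera XT. The labels name no culture, clone or batch, so all cells together counted as 1 sample, beside 1 bulk sample. SDs therefore describe the spread between cells, and no difference between cells and bulk could be tested.

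Proteins that are secreted or placed in membranes enter the ER through the Sec61 translocon, are folded there by chaperones and disulfide isomerases, and are sent back to the cytosol for degradation when folding fails. Unfolded proteins in the ER are sensed by IRE1 (Ern1), which splices the Xbp1 messenger, by PERK (Eif2ak3), which slows translation and favours that of Atf4, and by ATF6, which is released by cleavage. XBP1, ATF4 and ATF6 then raise transcription of chaperone, degradation and stress genes. The hypoblast and the parietal endoderm that comes from it lay down basement membrane, a secreted matrix of laminin and type IV collagen. The counts give the RNA of each gene as a whole and show neither Xbp1 splicing nor the activity of a sensor.

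The cells held from 6288 to 503044 reads in genes (median 266046) and from 349 to 5514 genes with a read. The bulk library held 47121 reads, so that 1 read was worth 21.2 CPM, a count scaled to the library total, against 1.99 to 159 CPM in a cell. Detection in a cell means a level of at least 5 CPM. Hypoblast markers were present, with 9 of 10 detected in at least 17 cells, among them Gata6 (28 cells), Gata4 (26) and Sox17 (24), and none of 6 visceral endoderm markers reached that number. Pou5f1 and Sox2 were each detected in 3 cells and Nanog in 7. A set of 20 cells with at least 50% of the median number of reads and of genes is called gene-rich below. Of the 14 cells outside it, C14, C17, C30 and C46 held Col1a2, 1 of 5 fibroblast markers listed, at 252 to 2126 CPM. Col1a1 was in C14, C17 and C30, and in C09, but not in C46. Dcn was detected in C30 alone (293 CPM) and Col3a1 in C14 alone (56.1 CPM), and Lum had no read in any cell. The Col1a2 cells had no Gata4 read, nor had C03, C09, C88 and C94. C14 held 112 CPM of Gata6 and 4596 CPM of Sparc. The bulk library held 849 CPM of Col1a2 and 828 CPM of Col1a1 (39 reads), and 255 CPM of the trophoblast gene Prl3d1, which had no read in any cell. The cell C54 was gene-rich and the deepest of all, yet lacked most of the genes described here, so results over gene-rich cells are given with and without it.

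The promoters are shown first, since 10 members hold a known stress element there. The list was chosen by name as genes of this response, so the share with such an element is a description and not independent support. RefSeq promoter windows of build GRCr8, 250 bases before to 50 after a gene's start, were found for 32 of the 40 genes. They were searched on both strands for the ER stress response element, in which CCAAT and CCACG are separated by 9 bases and which ATF6 is known to bind together with NF-Y. It occurred in 7 of the 32 members (21.9%) and in 21 of all 27457 genes with a window (0.0765%). The matches of 6 of these members, on the strand of the gene with 10 bases on either side, have the 2 conserved blocks in capitals. A block pair reading CGTGG and then ATTGG is the same element on the opposite strand.
Hspa5, chr3:38452963-38453001, plus strand: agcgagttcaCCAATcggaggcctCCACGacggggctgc
Hsp90b1 first, chr7:23012441-23012479, minus strand: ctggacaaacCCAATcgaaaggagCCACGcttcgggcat
Hsp90b1 second, chr7:23012337-23012375, minus strand: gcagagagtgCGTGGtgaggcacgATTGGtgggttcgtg
Dnajc3, chr15:102432524-102432562, plus strand: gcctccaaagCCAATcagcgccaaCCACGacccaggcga
Creld2, chr7:121789229-121789267, plus strand: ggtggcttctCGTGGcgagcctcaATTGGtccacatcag
Calr, chr19:40213125-40213163, plus strand: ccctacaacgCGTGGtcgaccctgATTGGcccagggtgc
Xbp1, chr14:84604548-84604586, plus strand: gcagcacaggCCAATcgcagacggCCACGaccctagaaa

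The type II form of the element, ATTGG and CCACG separated by 1 base, occurred in 3 members (9.38%) and in 17 of all genes with a window (0.0619%). In its matches the whole element is in capitals.
Hyou1 first, chr8:53602684-53602714, plus strand: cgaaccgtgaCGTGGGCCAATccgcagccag
Hyou1 second, chr8:53602784-53602814, plus strand: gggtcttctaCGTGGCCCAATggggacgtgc
Dnajb11, chr11:91672790-91672820, minus strand: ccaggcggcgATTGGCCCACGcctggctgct
Herpud1, chr19:10614811-10614841, minus strand: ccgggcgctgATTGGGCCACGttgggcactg

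Either form occurred in 10 members, which are 10 of the 38 genes that hold one among all 27457 genes (0.138%). The matches shown lay between 232 bases before the start (Calr) and the start itself (Dnajb11). The XBP1 and ATF6 core motif TGACGTGG occurred in Hyou1 alone among the members and in 0.681% of genes; in Hyou1 it overlaps the first type II element. TTGCATCA, a C/EBP-ATF element that ATF4 binds with C/EBP partners, occurred in Herpud1 and Ppp1r15b and in 0.827% of genes. TGATGAAAC, a variant of it, occurred in no member and in 0.226% of genes. Among 39 other ER genes with a window, 1 held the first form (Ero1b) and none the second. Among 24 other genes of the integrated stress response with a window, none held either. TGACGTGG was in 4 of these other ER genes (10.3%) and in 0 of these stress response genes, against 3.13% of the members. TTGCATCA was in 1 of these other ER genes (2.56%) and in 4 of these stress response genes (16.7%), against 6.25% of the members. A match is a run of letters and does not show that a factor binds there, and a window with no match says only that these letters are not in it.

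**Figure D1:**
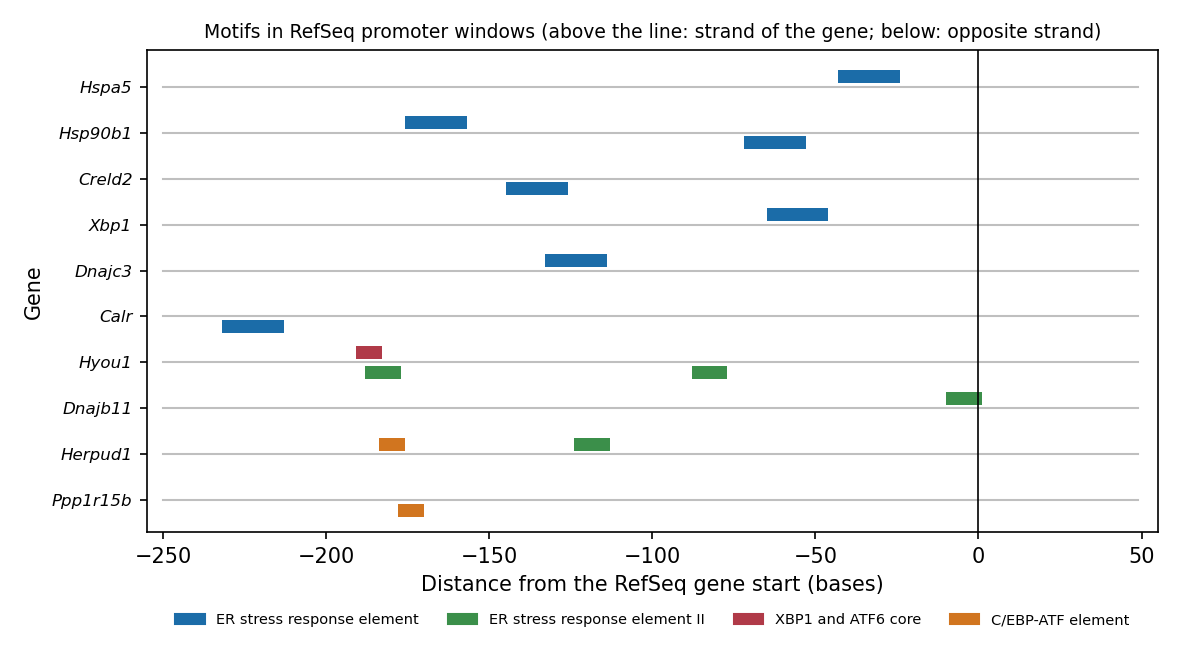
Positions of the motif matches in the RefSeq promoter windows of 10 members, in bases from the gene start, with matches on the strand of the gene above each line and on the opposite strand below it. The ER stress response element lies between 25 and 232 bases before the start in the 6 genes plotted, and Hyou1 holds 2 type II elements, of which 1 overlaps the XBP1 and ATF6 core.

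The 250 bases before the start are given for 3 members whose levels are followed across cells below. They are Hspa5, with 1 element close to its start, Hyou1, with 2 type II elements, and Herpud1, which holds the type II element beside the C/EBP-ATF element. Another RefSeq window of Hyou1, whose bases before the start are chr8:53602822-53603071, held no match and is not printed. Capitals mark the matches given above.
Hspa5, chr3:38452766-38453015, plus strand: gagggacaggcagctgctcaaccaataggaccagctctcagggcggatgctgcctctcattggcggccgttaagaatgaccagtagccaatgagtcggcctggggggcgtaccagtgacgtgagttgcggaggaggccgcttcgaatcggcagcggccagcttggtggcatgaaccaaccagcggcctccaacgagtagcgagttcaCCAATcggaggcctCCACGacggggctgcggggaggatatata
Hyou1, chr8:53602632-53602881, plus strand: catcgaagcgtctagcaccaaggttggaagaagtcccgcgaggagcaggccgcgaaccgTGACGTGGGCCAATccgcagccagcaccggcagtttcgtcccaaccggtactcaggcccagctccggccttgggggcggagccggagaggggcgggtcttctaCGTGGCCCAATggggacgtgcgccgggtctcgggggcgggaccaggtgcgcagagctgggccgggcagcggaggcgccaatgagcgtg
Herpud1, chr19:10614708-10614957, minus strand: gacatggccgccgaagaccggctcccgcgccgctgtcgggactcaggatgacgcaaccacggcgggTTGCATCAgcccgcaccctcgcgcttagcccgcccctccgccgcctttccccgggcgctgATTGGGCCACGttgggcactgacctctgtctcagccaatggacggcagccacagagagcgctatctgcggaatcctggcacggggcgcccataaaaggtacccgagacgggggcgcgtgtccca

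The first question was how widely the genes were detected. Of the 37 measured members, 27 were detected in at least 17 of the 34 cells, against 27.1% of the 10784 genes with a read in any library. In at least 30 cells 8 members were detected, a cut for which the share of all genes is not given here. All 7 oxidoreductases and isomerases, all 5 translocon genes and both lectin chaperones reached 17 cells. So did 5 of 8 HSP70 and HSP90 family chaperones and partners, 3 of 5 degradation genes, 1 of 3 sensors and 4 of 7 stress factors and targets. The list of 43 other measured ER genes gave a like count, with 30 detected in at least 17 cells. For other genes of the integrated stress response, the number was 11 of the 23 with a read.

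**Figure D2:**
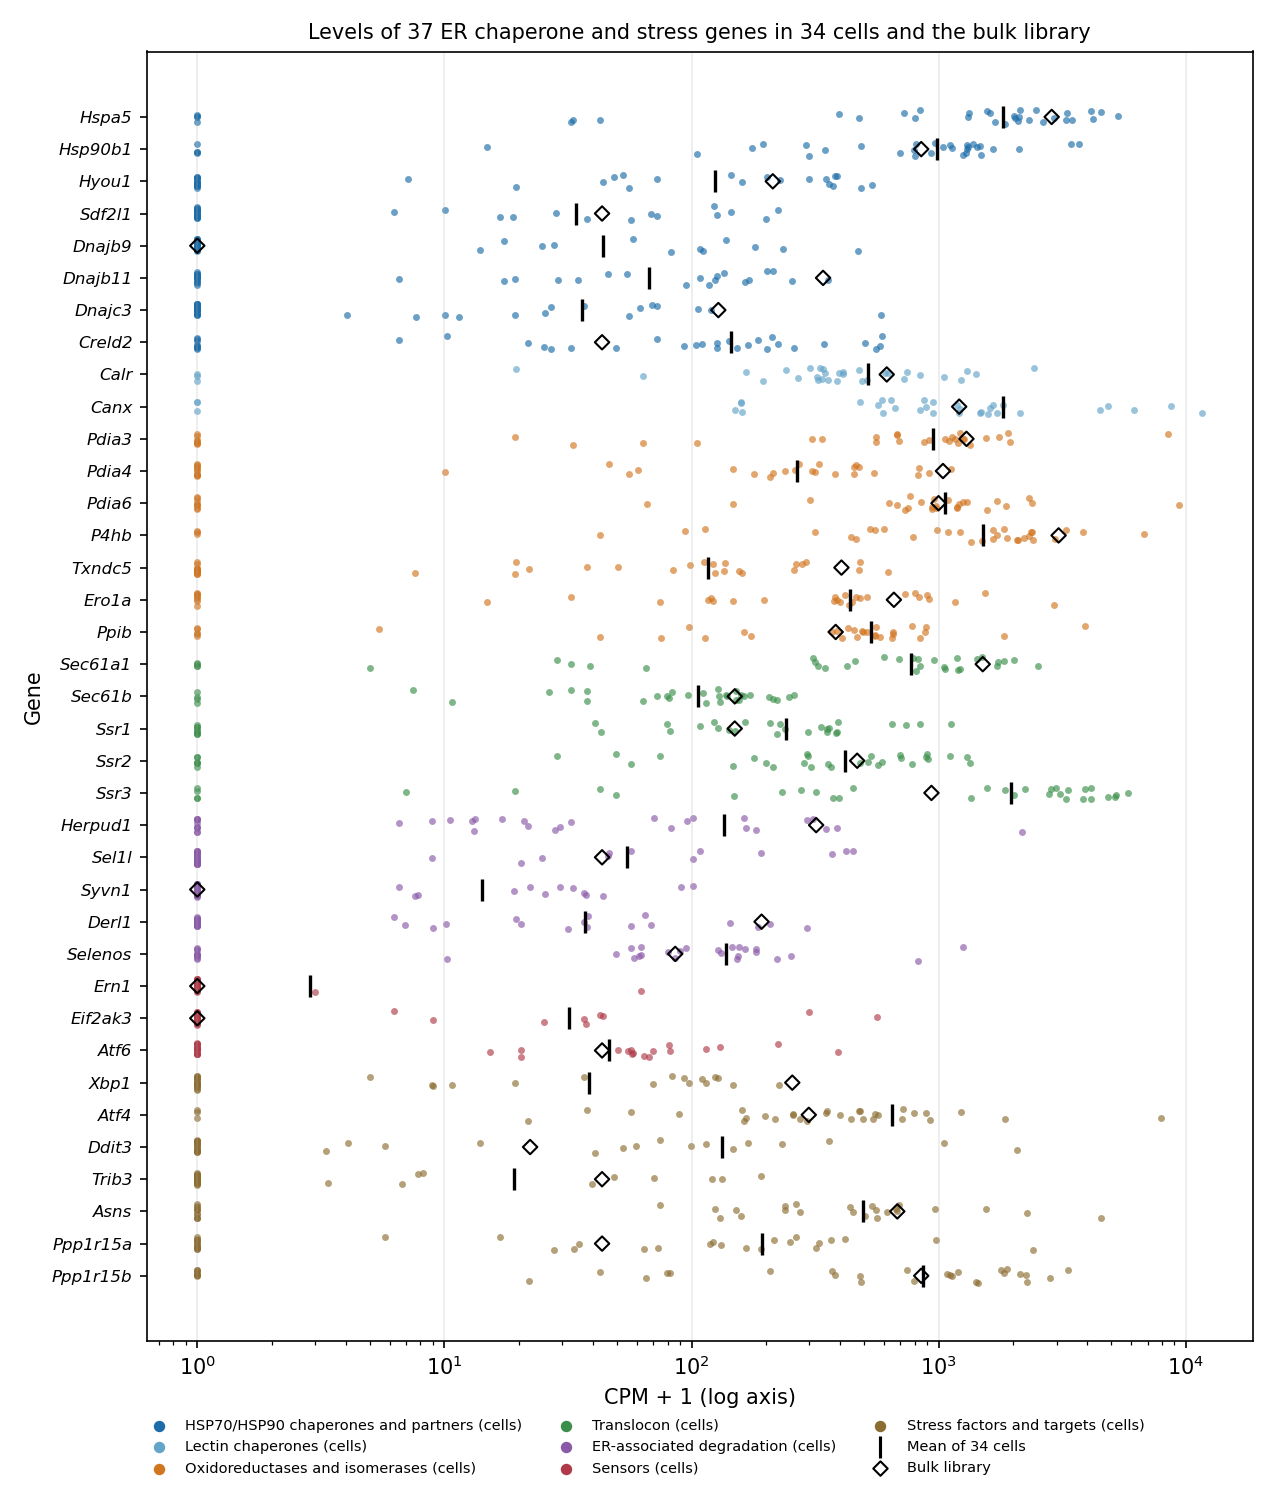
Level of each of the 37 measured genes on a log axis of CPM + 1, by role, with a point for each of the 34 cells, a bar for their mean and a diamond for the bulk library. Hspa5, P4hb, Ssr3 and Canx have most of their points toward the right, whereas Ern1, Syvn1, Trib3 and Eif2ak3 have most of their points at 0, and single points far to the right carry much of the mean of Atf4, Ddit3 and Herpud1. Genes differ in length, so levels are to be read along each row.

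The HSP70 and HSP90 family chaperones were present in most cells. Hspa5, which encodes BiP, the HSP70 of the ER and a regulator of the stress sensors, was detected in 30 of 34 cells (88.2%, Clopper-Pearson 95% interval 72.5% to 96.7%). Its values ran from 0 to 5327 CPM (C26), with a median of 1779 and a mean of 1815 ± 1468 (SD, n = 34 cells), and the bulk library held 2865 CPM (135 reads). It had no read in C54, C88, C94 and C95, was at 31.4 to 41.7 CPM in C09, C39 and C31, and was at 721.9 CPM or more in the 19 gene-rich cells other than C54. Hsp90b1, which encodes the ER HSP90 GRP94, was detected in 30 cells at 0 to 3690 CPM (median 944), and in bulk at 849 CPM (40 reads). Its 2 highest cells were C17 and C46 (3419 CPM), which held Col1a2. Across the 4 Col1a2 cells Hsp90b1 was 1466 to 3690 CPM, a range that overlaps that of the gene-rich cells (193.5 to 2113 CPM without C54).

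Their partners were found in fewer cells. Hyou1, the ER chaperone and nucleotide exchange factor GRP170, was detected in 19 cells, of which 16 were gene-rich, at 0 to 537.6 CPM (median 30.8). The bulk library held 212 CPM of Hyou1 (10 reads). Dnajb11, a BiP co-chaperone, was detected in 19 cells at 0 to 356 CPM (median 17.4), against 340 CPM in bulk (16 reads). Bulk thus lay near the highest single cell of Dnajb11, C10. Creld2, a secreted ER stress gene, was detected in 26 cells at 0 to 590 CPM (median 97.5, mean 144 ± 177), and in bulk at 42.4 CPM (2 reads). Dnajc3 (P58IPK), an inhibitor of PERK, was detected in 14 cells at 0 to 583 CPM, with 48.7% of its signal in C45 and a mean of 35.2 CPM, or 18.6 CPM without that cell. Dnajb9 (ERdj4), a co-chaperone that holds IRE1 inactive through BiP, was detected in 12 cells at 0 to 469.5 CPM (C38) and had no bulk read. Sdf2l1 was detected in 14 cells at 0 to 222 CPM, and its mean was 32.9 ± 60.1 CPM.

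The lectin chaperones hold glycoproteins while they fold, and both were detected in 31 cells. Calr, which encodes soluble calreticulin, was at 0 to 2428 CPM (C45; median 372), against 615 CPM in bulk (29 reads). Canx, the membrane-bound calnexin, was at 0 to 11655 CPM (median 945, mean 1813 ± 2555), against 1210 CPM in bulk (57 reads). The 5 highest Canx cells were C30 (11655 CPM), C14 (8688), C17 (6196), C47 (4857) and C46 (4509), all of them outside the gene-rich set. These include the 4 Col1a2 cells, where summed fibroblast markers were 252 to 2971 CPM. The 19 gene-rich cells other than C54 held 481 to 1824 CPM of Canx and no Col1a2 read. Because C47 lay within the Col1a2 cells' range without a Col1a2 read, the cells with and without Col1a2 overlapped for Canx. Of 36 members compared, 0 had all of the Col1a2 cells above the other 30 cells, and 20 of 6669 genes did (0.300%). The Col1a2 cells also had 27284 to 95359 reads, fewer than any of the gene-rich cells, and the part of depth or cell type in these Canx levels was not tested.

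The oxidoreductases form and rearrange disulfide bonds, and all 7 were widely detected. P4hb, the disulfide isomerase PDI, was detected in 31 cells at 0 to 6773 CPM (median 1423), with 3056 CPM in bulk (144 reads). Pdia6, another disulfide isomerase, was detected in 26 cells at 0 to 9396 CPM (median 893), with 997 CPM in bulk (47 reads). Pdia3, which acts with the lectin chaperones, was detected in 27 cells at 0 to 8483 CPM (median 685), with 1295 CPM in bulk (61 reads). The maxima of all of these lay in 2 cells outside the gene-rich set. C03 held 9396 CPM of Pdia6 and 6773 CPM of P4hb but had no read for 20 of the 37 members. C45 held 8483 CPM of Pdia3, 3853 of P4hb, 2914 of Ero1a and 2428 of Calr. Without its highest cell, the mean was 812 CPM instead of 1064 for Pdia6 and 718 instead of 946 for Pdia3.

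Ero1a, the oxidase that recharges PDI, was detected in 26 cells at 438 ± 581 CPM, and in bulk at 658 CPM (31 reads). Pdia4 was detected in 24 cells at 0 to 1124 CPM (C37; median 210.0), whereas bulk held 1040 CPM (49 reads), a level that only C37 exceeded. Txndc5, also of this family, was detected in 22 cells at 0 to 622 CPM (median 43.02), against 403 CPM in bulk (19 reads). Ppib, cyclophilin B, a prolyl isomerase that acts on collagen, was detected in 28 cells at 0 to 3922 CPM, with its maximum in C88, a library of 12750 reads in which 6 members were detected.

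Translocon genes included the member that separated the cells most sharply. Ssr3 encodes a subunit of the TRAP complex, which sits beside the Sec61 channel. It was at 1347 to 5814 CPM in the 19 gene-rich cells other than C54, at 5.96 CPM in C54 and at 0 to 448 CPM in the other 14 cells, and the bulk library lay between these ranges with 934 CPM (44 reads). With C54 left out, a choice made after its values were seen, Ssr3 was the 1 member of 36 compared whose lowest gene-rich cell lay above all of the other 14 cells, as did 7 of 6669 genes (0.105%). With C54 kept in the set, 0 members did, and 1 of 6669 genes (0.0150%). Cells with few reads as well as deep ones were low for Ssr3: C95 (450250 reads) and C74 (431709 reads) had 0 reads of it. The gene-rich set was chosen by reads and by genes detected, and the part of either in this separation was not tested.

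The other translocon genes did not separate the cells in this way. Sec61a1, the channel itself, was detected in 29 cells at 0 to 2532 CPM (median 736), with 1507 CPM in bulk (71 reads). Sec61b, a small channel subunit, was detected in 30 cells and varied least of the translocon genes relative to its mean (106 ± 75.6 CPM), against 149 CPM in bulk (7 reads). Cells with no Sec61b read were C14, C45, C88 and C94, whereas C54 held 129 CPM and C95 95.5 CPM. Among the other TRAP subunits, Ssr1 was at 239 ± 265 CPM in 26 cells and Ssr2 at 416 ± 390 CPM in 28. The Col1a2 cells held 785 to 2024 CPM of Sec61a1 but 0 to 448 CPM of Ssr3.

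Genes of ER-associated degradation had no member in more than 24 cells, and single cells held much of the signal of some. Herpud1, an ER membrane protein of the degradation complex, was detected in 24 cells, but C47 alone held 2173 CPM and 47.6% of its signal. Its mean was 134 CPM and 72.6 CPM without C47, the median was 18.1 CPM, and bulk held 318 CPM (15 reads). Selenos was detected in 24 cells at 136 ± 246 CPM with its maximum in C09 (1256 CPM), and in bulk at 84.9 CPM (4 reads). Derl1, a component of the retrotranslocation channel, was detected in 17 cells at 0 to 293 CPM (C40), against 191 CPM in bulk (9 reads). Sel1l and Syvn1, which form the ubiquitin ligase at the ER membrane, were detected in 12 and 13 cells at means of 53.9 ± 121 and 13.2 ± 24.6 CPM, and Syvn1 had no bulk read.

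Of the sensors, Atf6 was found in many cells and the others in few. Atf6 was detected in 17 cells (interval 32.4% to 67.6%), 16 of them gene-rich, at 0 to 390.6 CPM (C15) with a mean of 45.3 ± 78.6, and in bulk at 42.4 CPM (2 reads). Eif2ak3 (PERK) was detected in 9 cells at 0 to 560.5 CPM, with 53.3% of its signal in C14, where 1 read was worth 28.03 CPM, and a mean of 30.9 CPM, or 14.9 CPM without C14. Ern1 (IRE1) had 5 reads in all the cells together and was detected in 1 of 34 (2.94%, interval 0.0744% to 15.3%), C17, which held 96.9% of its signal. Neither Eif2ak3 nor Ern1 had a bulk read, and a count of 0 in bulk allows up to 3 reads, or 63.7 CPM, as a one-sided limit, while the two-sided Poisson interval reaches 78.3 CPM. At this depth a low level of either sensor was not detectable in bulk.

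Stress factors and their targets each had their highest level in a different cell. Atf4, the transcription factor translated under PERK and other eIF2 kinases, was detected in 31 cells at 0 to 7950 CPM (median 350, mean 644 ± 1349), against 297 CPM in bulk (14 reads). It stood at 7950 CPM in C39, at 1862 CPM in C47 and at 1231 CPM or less elsewhere. Ddit3, the ATF4 target CHOP, was detected in 13 cells at 0 to 2077 CPM (mean 132 ± 393), with 46.2% of its signal in C95, and in bulk at 21.2 CPM (1 read). The highest Atf4 cell, C39, had no Ddit3 read and 32.2 CPM of Hspa5. The highest Ddit3 cell, C95, had no read of Atf4 or Hspa5. C47 held 1862 CPM of Atf4, 1050 of Ddit3, 2173 of Herpud1 and 557 of Creld2, but no read of Xbp1, Asns, Trib3 or Ppp1r15a, and 393 CPM of Hspa5.

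Xbp1 was detected in 15 cells at 0 to 226 CPM (C43; mean 37.3 ± 58.4), against 255 CPM in bulk (12 reads), which lay above every cell. Ppp1r15a (GADD34), which returns translation by dephosphorylating eIF2 alpha, was detected in 20 cells at 0 to 2400 CPM (C74), and its mean of 191 CPM was 124 CPM without C74. C74 also held 2655 CPM of Hspa5 and 2740 CPM of summed pluripotency markers, with 9 members detected. Ppp1r15b, its constitutive relative, was detected in 26 cells at 0 to 3336 CPM (C05; median 481), with 849 CPM in bulk (40 reads). Asns, asparagine synthetase and an ATF4 target, was detected in 23 cells at 0 to 4557 CPM (C72; median 238), with 679 CPM in bulk (32 reads). Trib3, a pseudokinase induced by ATF4 and CHOP, was detected in 9 cells at 0 to 189.5 CPM (C40), all of them gene-rich.

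Stress genes coincided in part. Atf4 and Ddit3 were both detected in 12 of the 13 cells with Ddit3, and Atf4 was in 31 cells in all. All 9 cells with Trib3 also had Asns, and 8 of them had Atf3, another stress factor, whereas 3 had Ddit3. Atf6 was found in 17 cells, and each of these had Herpud1 and Atf4. No expectation was computed for these numbers, and cells differed in depth.

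The summed level of the 37 genes gives the share of a library's reads spent on them. It ranged from 477 CPM in C94 to 29024 CPM in C15, with a median of 18914 and a mean of 16776 ± 7981 CPM, and was 20203 CPM in bulk. In 27 cells the sum was 12484 CPM or more, and in the other 7 it was 6039 CPM or less, with no cell between. The low cells were C94, C54, C31, C95, C09, C74 and C88. They include the 3 deepest libraries, C54, C95 and C74, with 431709 to 503044 reads, as well as the 2 shallowest, C94 and C88. The other 19 gene-rich cells held 12484 to 29024 CPM, and the sum in bulk lay inside that range.

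**Figure D3:**
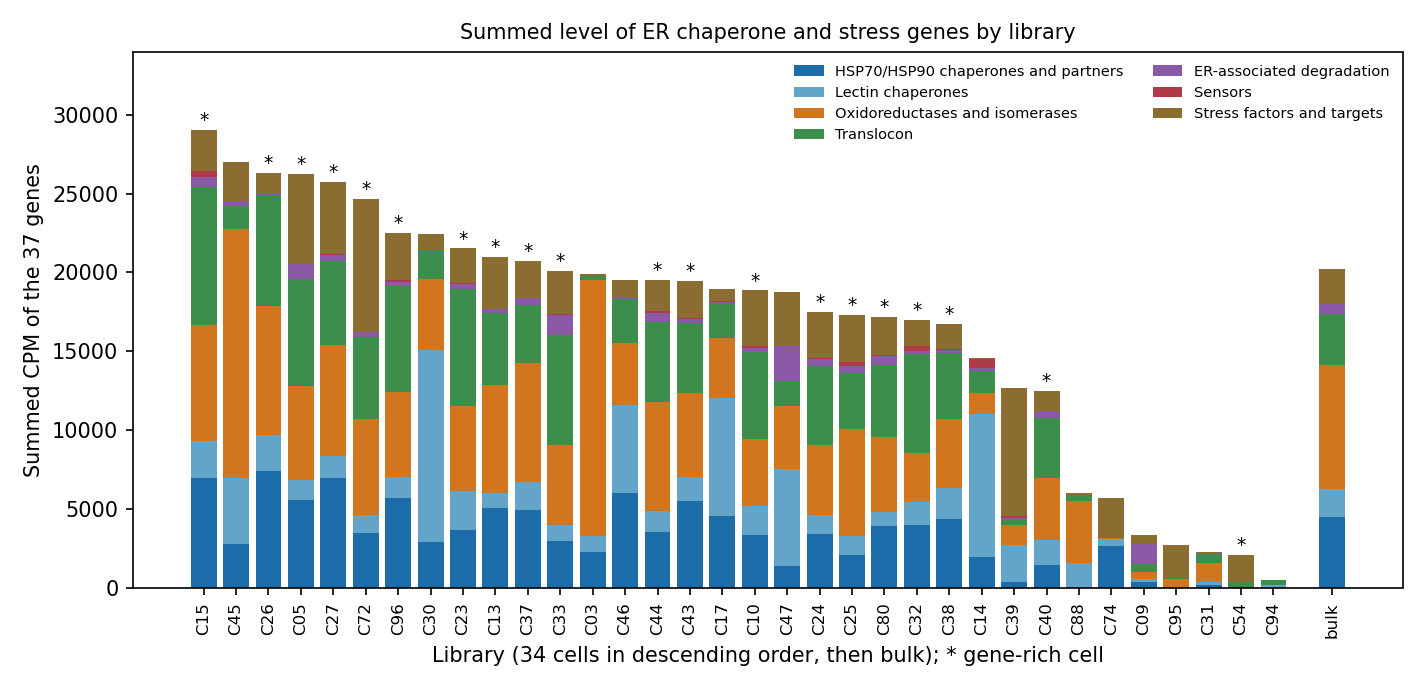
Summed CPM of the 37 genes in each of the 34 cells, in descending order, and in the bulk library, stacked by role, with gene-rich cells starred. The sum falls from 12484 CPM in C40 to 6039 CPM in C88, the oxidoreductases fill most of the bars of C45 and C03, the lectin chaperones stand out in C30 and C14, and C54 is the one starred cell at the low end.

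C54 was the deepest library, with 503044 reads and 3307 genes with a read, but had no read for 28 of the 37 members. Its lectin chaperone and oxidoreductase sums were 0 CPM, where the other 19 gene-rich cells held 890 to 2455 and 3089 to 8136 CPM. When libraries with at least 25000 reads were thinned to that number, 5 members had a read in C54, against 23 to 32 in each of those 19 cells. Of all genes, 2309 had a read in C54 after thinning, against 2782 to 3775 in each of those 19 cells. The members that C54 did hold were Asns at 1557 CPM, Ssr1 at 221, Atf4 at 159, Sec61b at 129 and Dnajb11 at 27.8 CPM, while Ssr3, Sec61a1, Xbp1 and Ern1 had traces of 1.99 to 5.96 CPM. Summed secreted cargo, a list with laminin, collagen IV, Sparc and cathepsin L genes, was 205 CPM in C54 and 12744 to 66934 CPM in the other 19. Among the hypoblast markers, C54 held 1107 CPM of the endoderm adaptor Dab2, 573 CPM of Gata4, 326 of Gata6 and 143 of Sox17. Col4a1 was at 15.9 CPM and Sparc at 3.98 CPM, while Lama1, Pdgfra, Foxa2 and Sox7 had no read. These markers summed to 2169 CPM in C54, against 6087 to 18683 CPM in the other 19. The cytosolic chaperone Hsp90ab1 was at 30973 CPM in C54, its highest value among the cells. Other ER genes summed to 1805 CPM there, and to 4471 to 12025 CPM in the other 19. The next deepest library, C95, lay outside the gene-rich set, with 450250 reads and 1642 genes with a read. C95 had no read for 33 of the 37 members, and its lectin chaperone sum was 0 CPM. It held 831 CPM of secreted cargo, 2061 CPM of Dab2 and 1512 CPM of Gata4. The values of C54 and of C95 each describe 1 cell.

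Across the gene-rich cells, the members' levels were weakly related overall and strongly in a few pairs. For 34 members and 561 pairs, the median Spearman's rho over 20 cells was 0.12, and 0.044 over 19 cells without C54, so most of that median rested on C54. Over all pairs of 4217 genes the median was 0.01 in both sets. A rho of at least 0.5 was reached by 31 member pairs (5.53%), or 17 without C54 (3.03%), against 1.69% and 1.87% of all gene pairs. The labels name no culture or batch for the cells, and the cells differ in depth, so these values are descriptions without a test.

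The closest pair was Hspa5 with Pdia3, at a rho of 0.81, or 0.78 without C54 and 0.72 after thinning. Hspa5 with Hyou1 followed at 0.70, or 0.66 without C54 and 0.62 after thinning. Dnajb9 with Pdia4 had a rho of 0.67 and Creld2 with Herpud1 one of 0.65, and both were lower after thinning, at 0.35 and 0.46. Atf4 with Ddit3 reached 0.60 over gene-rich cells, 0.56 without C54, and 0.40 over all 34 cells, where C39 and C95 each held 1 of the genes without the other. Xbp1 was nearest to Ppp1r15b (0.55) and Hspa5 (0.52), and Atf6 to Creld2 (0.60), Dnajb9 (0.58) and Calr (0.58). The lowest rho was that of Hspa5 with Sec61b, at −0.52, and Ssr1 with Atf6 was at −0.52 as well.

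**Figure D4:**
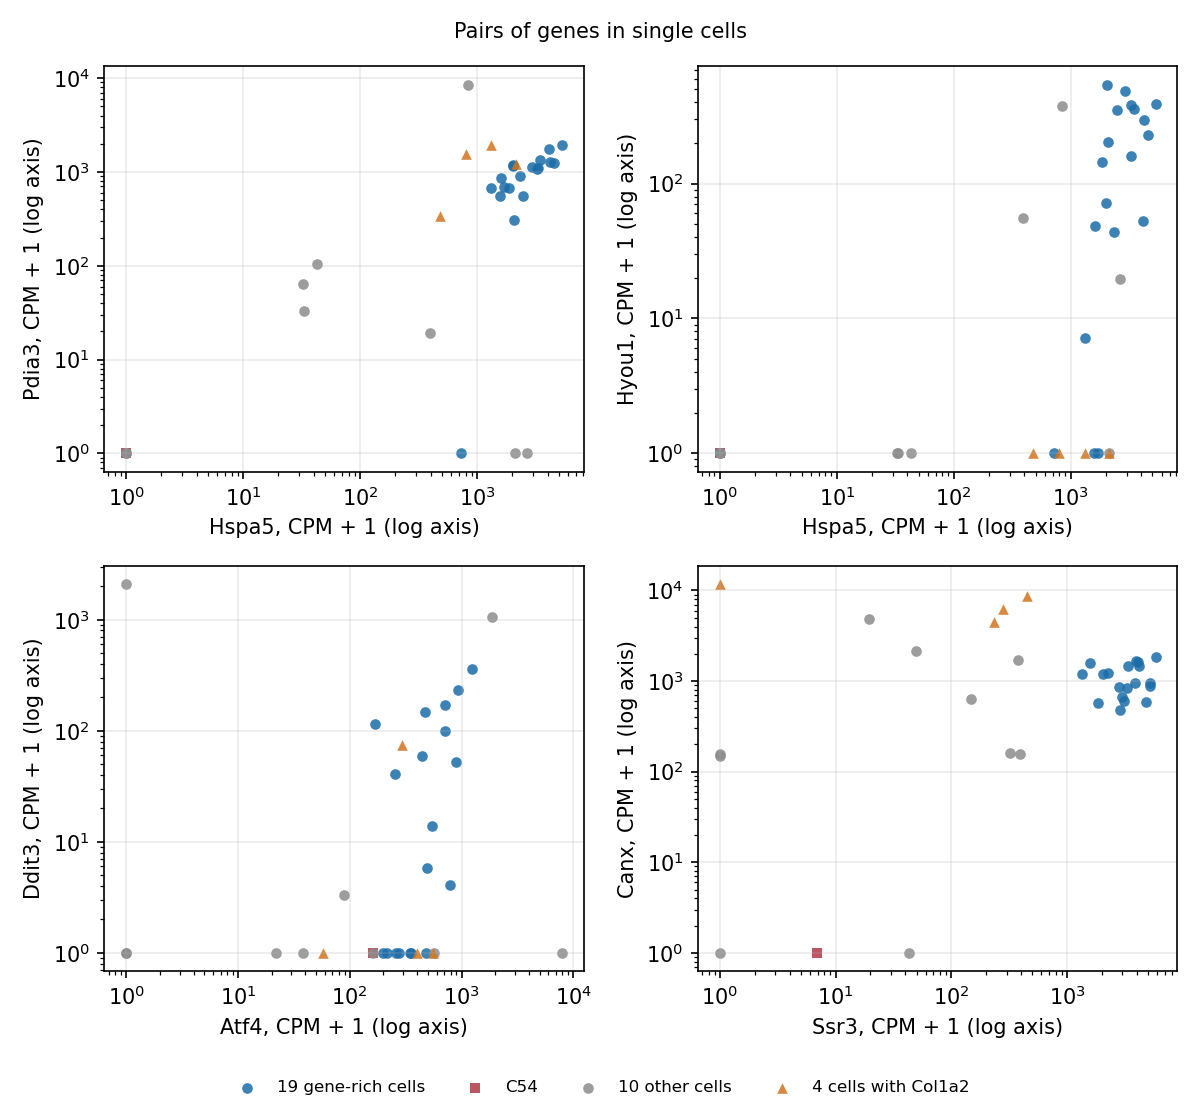
CPM + 1 on log axes for 4 pairs of genes, with 19 gene-rich cells in blue, C54 as a red square, 4 cells with Col1a2 as orange triangles and 10 other cells in grey. Pdia3 and Hyou1 are higher where Hspa5 is higher among the gene-rich cells, C39 and C95 lie on the axes of the Atf4 and Ddit3 plot, and the cells with Col1a2 lie at high Canx and low Ssr3.

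The 10 members with an ER stress element were also set beside those without. Their 45 pairs had a median rho of 0.15, or 0.06 without C54, against 0.09 and 0.01 for the 153 pairs of members with a window and neither element. Of the 10, 8 were detected in at least 17 cells, as were 13 of the 20 measured members with a window and neither element. Against bulk, 4 of the 10 were at least 2-fold higher in bulk and 1 higher in the cells, with a median log2 ratio of −0.72. For the 19 compared with neither element the numbers were 4 and 6, with a median of 0.34. Among those 6 were Dnajb9 and Eif2ak3, which had no bulk read and so could only be called toward the cells. For 6 other members, compared but without a window, the numbers were 1 and 0, with a median of −0.52. Of all genes compared, 30.6% were higher in bulk and 34.8% higher in the cells. The differences between these groups were not tested. The summed level of chaperones, lectins, oxidoreductases and translocon genes had a rho of 0.25 with summed secreted cargo over the 20 gene-rich cells, and of 0.13 without C54. Its rho was 0.47 with the summed other ER genes (0.38 without C54) and 0.54 with the number of genes with a read (0.46 without C54).

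The last comparison set the mean of the cells beside the bulk library, the population control. Log2 ratios of the cells' mean to bulk were formed on CPM + 1 for genes with at least 10 CPM in the mean of both. Of 35 members compared, 7 had a ratio of at least 2-fold toward the cells, as did 34.8% of all 6452 genes. At least 2-fold higher in bulk were 9 members and 30.6% of all genes. Of the 6452 genes, 1711 had no bulk read, and under this filter such genes could only be called toward the cells. The share among genes with a bulk read is given below. For Dnajb9 and Eif2ak3, counted among the 7, no difference is shown, since both had no bulk read and a mean in the cells that a bulk count of 0 allows. The other 19 lay within 2-fold, among them Hspa5 (1.58-fold higher in bulk), Hsp90b1, Calr, Canx, Pdia3 and Pdia6. The members' median log2 ratio was −0.25 and that of all genes −0.01. With genes at 0 in bulk set to the floor of 3 reads, the medians were −0.45 and −0.62. Over gene-rich cells the medians were 0.12 for the members and 0.18 for all genes. The sign of the members' median thus depended on which cells were averaged, and the median of all genes moved up as well.

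Higher in bulk were genes of every group but the lectin chaperones, the translocon and the sensors. Xbp1 was 6.82-fold higher in bulk (Poisson 95% interval 3.53 to 11.9), Derl1 5.32-fold (2.43 to 10.1) and Dnajb11 5.11-fold (2.92 to 8.29). Pdia4 was 3.89-fold higher (2.88 to 5.14), Dnajc3 3.62-fold (1.33 to 7.88) and Txndc5 3.48-fold (2.10 to 5.44). Of these, Dnajc3 was 6.86-fold higher without C45. Herpud1 was 2.37-fold higher (1.33 to 3.91), and 4.38-fold without C47. Trib3, with 2 bulk reads, was 2.33-fold higher (0.28 to 8.42), an interval that includes no difference, and P4hb 2.02-fold (1.70 to 2.37), at the edge of the 2-fold limit. The intervals cover the counting error of the bulk reads and treat the mean of the cells as exact. Even counts made up 79.9% of the nonzero bulk counts, more than independent reads would give, so the intervals are too narrow.

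Higher in the cells were the stress genes Ddit3, Ppp1r15a and Atf4, the translocon gene Ssr3 and the chaperone partner Creld2. These were 5 of the 33 members compared that had a bulk read, against 11.2% of the 4741 genes with a bulk read. Ssr3 was 2.10-fold higher (interval 1.56 to 2.89), and 3.45-fold over gene-rich cells. Ddit3 was 6.22-fold higher (1.12 to 246), but 3.45-fold without C95. Ppp1r15a was 4.50-fold higher (1.25 to 37.2), and 2.93-fold without C74. Creld2 was 3.39-fold higher (0.94 to 28.03) on 2 bulk reads, and Atf4 was 2.17-fold higher (1.29 to 3.97) but 1.42-fold without C39. Dnajb9 and Eif2ak3, with means of 42.8 and 30.9 CPM, lay under the bulk floor of 63.7 CPM and have no fold.

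**Figure D5:**
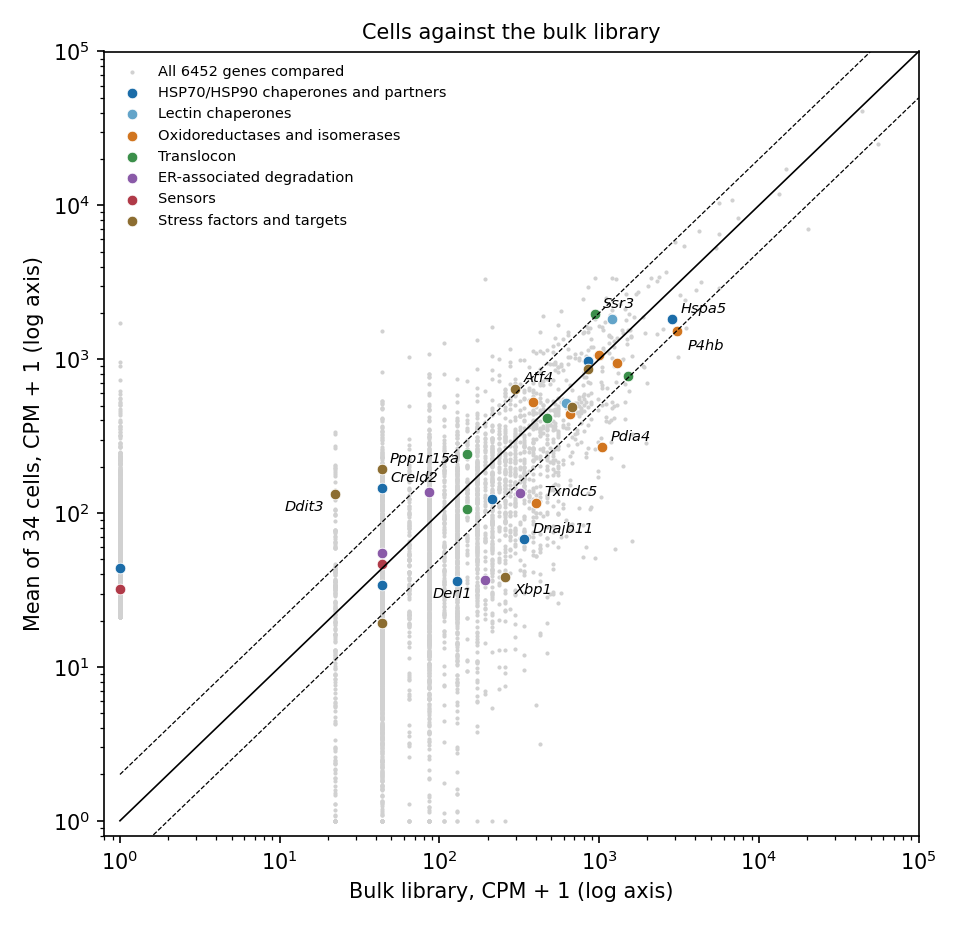
Mean CPM + 1 of the 34 cells against CPM + 1 of the bulk library, both on log axes, for the 35 members compared, coloured by role, and for all 6452 genes in grey, with lines at equal level and at 2-fold. Xbp1, Derl1 and Dnajb11 lie farthest toward bulk among the members, Ddit3, Ppp1r15a and Creld2 lie toward the cells at 1 or 2 bulk reads, and vertical rows of grey points mark single bulk reads.

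The bulk values were set beside the cell types the libraries could hold. The bulk library had 1677 CPM of summed fibroblast markers, which were at 0 in 29 of the 34 cells. All of this sum was Col1a1 and Col1a2, and Col3a1, Dcn and Lum had no bulk read. In bulk the 255 CPM of trophoblast markers was Prl3d1 alone, with no read of Cdx2, and both were at 0 in all cells. Without the 4 Col1a2 cells, an alternative added after the data were seen, 9 of 34 members compared were higher in bulk and 6 higher in the cells, beside 30.9% and 35.1% of all genes. What other cells contributed to the bulk levels of Xbp1, Derl1 or Pdia4 was not tested. Among other ER genes, 11 of 41 compared were higher in bulk and 7 higher in the cells. Among other integrated stress response genes the numbers were 9 of 20 and 2, and of all genes 30.6% and 34.8%. Of those compared, 4 other ER genes, 1 other integrated stress response gene and 1711 of all 6452 genes had no bulk read.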

How the data were processed

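The deposited table holds whole-number read counts per RefSeq record for 34 cells and 1 bulk library. Per the submitters' processing notes, the authors used TopHat2 and build rn5. Which counter and annotation were used, and how reads with several matches were treated, is not given in the sources used here. Reads of near-identical copies could therefore be shared or lost, and no molecular identifiers are mentioned, so copies made in amplification count as reads.

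Of 17201 records, 16215 were matched to a symbol in a RefSeq table of build GRCr8. The other 986, with 4.11% of the reads, stayed in the totals and each counted as a gene. Records of a gene were summed and scaled to CPM of library totals. No cell was removed and no doublet caller was run. With 1 sample in each group there is no test and no p-value. Shares of cells carry exact Clopper-Pearson intervals and bulk reads exact Poisson intervals, which cover counting error only. Cells and bulk were compared as log2 ratios with a pseudocount of 1 CPM. Promoter sequences are those of RefSeq, build GRCr8. One motif match is counted but not reported here. Transcript lengths and proteins were not used here, so levels are not compared between genes.

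All members are accounted for. Values are given in full for the 3 members of each role with the highest mean, every sensor, members past 2-fold against bulk, members with most of their signal in 1 cell, and members detected in under 5 cells. Of the other ER and stress response lists, the 4 genes with the highest mean CPM, uncorrected for length, are named. The members, lists and tests were chosen with earlier results of these data known. The alternatives tried were other detection thresholds, pseudocounts, filters, averages, TMM factors and thinning, and 2 were added after the data were seen: without C54 and without the Col1a2 cells. Python 3.11.15 (numpy 2.4.6, pandas 2.3.3, scipy 1.17.1, matplotlib 3.10.9) and R 4.3.3 with edgeR 4.0.16, for the TMM factors, were used. The scripts were tested on simulated data.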

Additional observations from a re-analysis of the deposited data

How the results depend on the processing

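The number of members detected in at least 17 cells was 27, and ran from 20, at a threshold of 50 CPM, where no sensor was left, to 34 in at least 10 of the 20 gene-rich cells. That last cut was passed by 4217 of the 10784 genes with a read, and the share of all genes at 50 CPM is not given here. The members' summed level ran from 12493 to 19800 CPM. The comparison with bulk depended on how the cells were averaged. With the median over cells, the members' median log2 ratio was −0.92 (all genes: −4.29), 1 of 33 members was higher in the cells and 16 were higher in bulk (all genes: 8.30% and 73.9%). Among members past 2-fold the direction turned for Ddit3 (−4.47) and Ppp1r15a (−0.34). Among those within 2-fold, Sel1l (−5.44) and Atf6 (−2.41) turned and moved past it toward bulk. Canx, Pdia6, Selenos and Ppp1r15b turned but stayed within 2-fold, and Hyou1, Sdf2l1, Asns and Sec61a1 moved past it without turning. TMM factors moved the median of all genes to 0.21, and P4hb (−0.63) and Trib3 (−0.94) then lay within 2-fold. P4hb, Atf4, Ssr3 and Trib3 crossed the 2-fold limit under other alternatives too, as did Sec61a1. The median rho of member pairs was 0.35 over 34 cells, 0.28 as Pearson's r of log2(CPM + 1) and 0.044 without C54. Depth limits the bulk values: a gene with no bulk read may have up to 63.7 CPM there as a one-sided limit, or 78.3 CPM by the two-sided interval. No paired analysis was possible because the groups share no replicate beyond number 1 and no result comes from a test.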

Other observations

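Other genes of the ER followed the chaperones in being widely detected. Vcp, the ATPase that pulls substrates out of the ER membrane, was at 905 ± 1453 CPM (SD over 34 cells, 31 of them with detection) and 1231 CPM in bulk (58 reads). The oligosaccharyltransferase genes Rpn2, Rpn1 and Stt3a, whose products attach sugar chains to entering proteins, were at 702 ± 577, 598 ± 556 and 512 ± 489 CPM. They were detected in 30, 27 and 29 cells.

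Genes of the integrated stress response beyond the list included Nars1 (586 ± 647 CPM, 32 cells), Eif2s1 (434 ± 458 CPM, 29 cells), Mthfd2 (401 ± 870 CPM, 25 cells) and Wars1 (328 ± 341 CPM, 22 cells). Nars1 and Wars1 encode aminoacyl-tRNA synthetases, Eif2s1 the eIF2 alpha subunit that PERK phosphorylates, and Mthfd2 a mitochondrial folate enzyme. In bulk, Wars1 stood at 1613 CPM (76 reads), Nars1 at 849 CPM (40 reads), Mthfd2 at 403 CPM (19 reads) and Eif2s1 at 318 CPM (15 reads).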
